A study of Mus musculus with 8 samples.

Results

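The genes described here encode 10 transcription factors that set up or keep B-cell identity: *Pax5*, *Ebf1*, *Tcf3*, *Ikzf1*, *Ikzf3*, *Foxo1*, *Bach2*, *Lef1*, *Irf4* and *Irf8*. They were chosen by name and by no threshold on the peaks, though with earlier results of these data known, and are 10 of the 21670 protein-coding genes of GENCODE M21 on chromosomes 1 to 19 and X of the mouse genome (GRCm38). For each gene, the peaks of 5-hydroxymethylcytosine (5-hmC) were counted in a window that holds the gene body and 10 kb on each side of it, and the bases under peaks were summed. The 10 windows together held 1553859 bp.

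5-hmC was mapped by hMeDIP-seq, in which sheared DNA (350-bp fragments) that carries this base is enriched with an antibody before sequencing. The cells were progenitor B (pro-B) cells, sorted as B220+CD43+IgM- from the leg bone marrow of C57BL/6 mice aged 4 to 6 weeks. There were 2 libraries from *Hdac7* fl/- mice, which lose HDAC7 in B-lineage cells through mb1-Cre, a Cre inserted into *Cd79a*, and are called HDAC7-deficient. The other 2 came from *Hdac7* +/- littermates, which keep 1 working copy of *Hdac7*, are called wild-type in the labels and here, and thus share the loss of the other copy with the deficient mice. The sources used here do not state whether the littermates carried Cre, or whether replicates were separate mice or pools, so the spread between replicates may be technical. The files hold the start and end of each peak and nothing else, and a peak does not tell how many of the cells carried the mark. The depth behind a peak is therefore unknown, no interval for counting error can be given, and neither the deletion of *Hdac7* nor the identity of the sorted cells can be checked by expression. The *Hdac7* window itself held 70 and 57 peaks in the wild-type pair of libraries, replicates 1 and 2, and 70 and 59 in the deficient pair. The 4 lists held between 1305200 and 1414862 peaks, and on chromosomes 1 to 13, where all 10 genes lie, between 9.08% and 10.5% of the sequence was under peaks.

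TET enzymes make 5-hmC by oxidising methylated cytosine, which in mammals lies mostly at CpG dinucleotides. The mark is known from the bodies and enhancers of active genes, while CpG-rich start sites are usually poor in it. In early B cells E2A (the product of *Tcf3*), FOXO1 and EBF1 switch on the B-lineage program, and PAX5 commits cells to it. Ikaros is already needed for the earlier choice of the lymphoid lineage. Aiolos, BACH2, LEF1, IRF4 and IRF8 also support B-cell development.

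Sequences that were under peaks in all 4 libraries are shown first. For each gene, peaks of the 4 libraries with an overlap of 1 bp or more were joined into regions, and the region with a peak in all 4 libraries and the largest narrowest peak was taken. The longest stretch of that region under peaks of all 4 libraries forms its core. Of the cores of at least 100 bp, 5 are printed below, at most 300 bases from the middle, on the gene's strand of GRCm38. Capitals mark CpG dinucleotides, the usual site of the modification.
*Tcf3*, intron 2, chr10:80429514-80429631: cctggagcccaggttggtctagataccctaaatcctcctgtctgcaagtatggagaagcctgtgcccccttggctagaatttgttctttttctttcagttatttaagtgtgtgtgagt
*Ebf1*, downstream of the gene, chr11:45009648-45009878: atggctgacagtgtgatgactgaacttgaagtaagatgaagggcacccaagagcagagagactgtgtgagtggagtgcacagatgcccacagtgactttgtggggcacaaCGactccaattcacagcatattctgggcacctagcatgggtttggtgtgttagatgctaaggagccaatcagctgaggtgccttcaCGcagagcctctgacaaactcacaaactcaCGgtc
*Ikzf1*, intron 3, chr11:11720169-11720326: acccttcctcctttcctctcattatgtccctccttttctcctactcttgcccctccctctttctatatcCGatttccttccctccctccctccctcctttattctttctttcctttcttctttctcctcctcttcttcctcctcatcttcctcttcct
*Ikzf3*, exon 4 with the intron before it, chr11:98490448-98490679: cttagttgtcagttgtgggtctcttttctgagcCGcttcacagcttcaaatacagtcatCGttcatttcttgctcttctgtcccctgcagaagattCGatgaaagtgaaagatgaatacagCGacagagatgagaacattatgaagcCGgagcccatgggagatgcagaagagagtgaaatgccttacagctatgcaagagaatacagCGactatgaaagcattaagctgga
*Irf8*, intron 6, chr8:120751725-120752024: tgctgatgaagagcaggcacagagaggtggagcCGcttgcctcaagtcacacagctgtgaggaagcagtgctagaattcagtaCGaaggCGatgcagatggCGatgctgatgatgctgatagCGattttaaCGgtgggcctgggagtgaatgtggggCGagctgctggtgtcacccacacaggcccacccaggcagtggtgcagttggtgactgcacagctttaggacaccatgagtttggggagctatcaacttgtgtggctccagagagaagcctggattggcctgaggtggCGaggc

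These cores did not look alike. The *Irf8* stretch held 8 CpGs in 300 bases and the *Ikzf3* stretch 6 in 232 bases. The *Ikzf1* core had 1 CpG and the *Tcf3* core none. The *Ikzf1* core was a pyrimidine tract (92.4% C or T), soft-masked as a repeat over 100% of its length, and 55.1% of the *Tcf3* core was soft-masked, against 0% in *Ebf1* and *Irf8*. The middle of the region lay 4.13 kb after the start site in *Tcf3*, 33.9 kb after it in *Ikzf1*, 54.9 kb in *Ikzf3* and 15.8 kb in *Irf8*, where the gene model *Gm20388* overlaps. In *Ebf1* it lay 392 kb after the start site and began 1337 bp past the end of the gene. The cores of *Pax5* (76 bp, intron 5), *Lef1* (67 bp, 8.24 kb upstream) and *Irf4* (62 bp, 9.74 kb upstream) were shorter. In *Foxo1* the region chosen in this way spanned 1387 bp of intron 1, and no single base of it was under peaks of all 4 libraries.

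All 10 genes carried more 5-hmC peak sequence than the middle gene of their length. Between 11.1% (*Lef1*) and 23.4% (*Irf8*) of each window was under peaks as a mean of the 4 libraries, with a median of 14.2%, against 10.1% over all protein-coding genes. Each gene was ranked among the protein-coding genes within 25% of its length, and its percentile is the share of those genes with a lower value. The 10 percentiles ran from 71.3 to 100 with a median of 95.8, and 8 of 10 were above 75. By the number of peaks in place of bases the median was 98.1. When the genes compared had to be like in CpG density too, an alternative chosen after the data had been seen, the median was 95.0 and *Bach2* and *Irf8* were again the highest. The median differed between libraries, at 94.3 and 78.1 in the wild-type pair and at 96.1 and 96.0 in the deficient pair. Wild-type replicate 2 had the lowest value, and it was the library with the largest share of chromosomes 1 to 13 under peaks, 10.5%. Of the 10 genes, 4 had their smallest share of window under peaks in it and 3 in wild-type replicate 1. Ranks are a description of these 4 libraries and no test was made over genes.

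**Figure D1:**
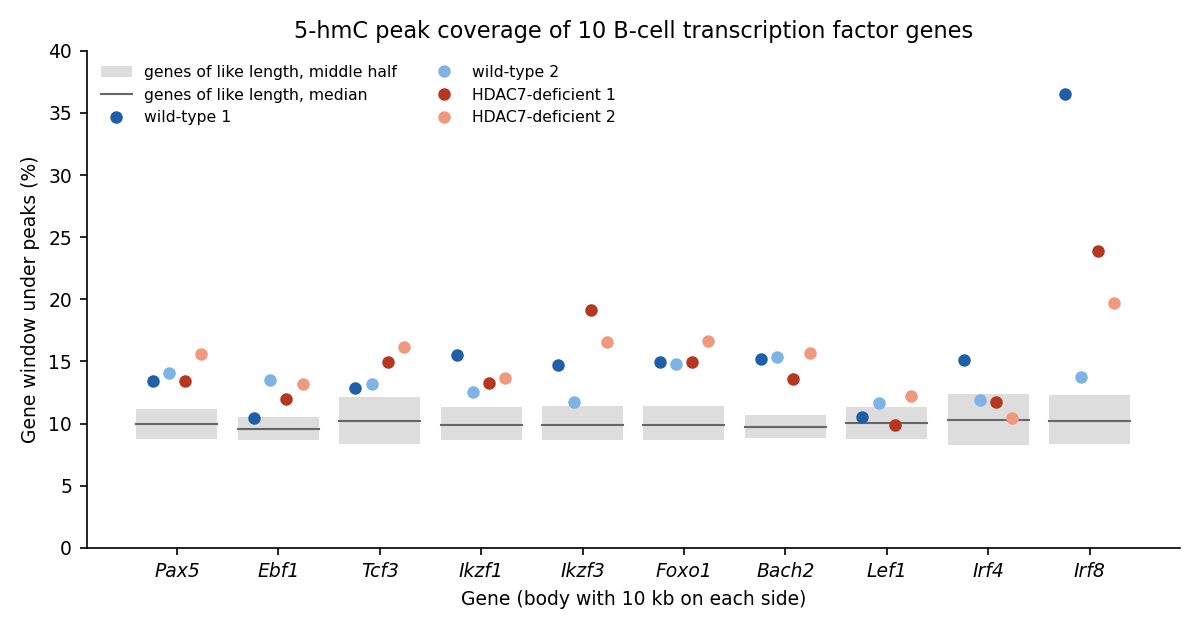
Percent of each gene window (gene body with 10 kb on each side) under 5-hmC peaks, with 1 point per library. Grey bars span the interquartile range of the protein-coding genes within 25% of the gene's length and the line is their median. All 4 points of 7 genes lie above the grey bars, those of *Ebf1*, *Lef1* and *Irf4* do not, and the *Irf8* points spread from 13.7% to 36.5%.

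Among the genes that start the program, *Tcf3* (chr10:80409514-80433647, minus strand) encodes the E2A basic helix-loop-helix proteins. Its window was under peaks for 12.9% and 13.2% in the wild-type pair and for 14.9% and 16.2% in the deficient pair, a mean of 14.3% ± 1.56 (SD, n = 4) and percentile 89.8 of 3033 genes. *Ebf1* (chr11:44617317-45008091, plus strand), the early B-cell factor, is the longest of the 10. Its shares were 10.5%, 13.5%, 12.0% and 13.2% in the same order, a mean of 12.3% ± 1.37 (SD, n = 4), and wild-type replicate 1 was the lowest. A share that is modest beside the other members thus ranked at 94.9 among the 352 genes of like length, whose median was 9.53%. *Foxo1* (chr3:52268336-52353221, plus strand), a forkhead factor that drives *Rag* gene expression, gave 14.9%, 14.8%, 15.0% and 16.6%, a mean of 15.3% ± 0.876 (SD, n = 4) and percentile 97.3 of 1672 genes. The 4 libraries of *Foxo1* lay closer together than those of any other member.

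*Pax5* (chr4:44524757-44710487, minus strand) encodes the commitment factor that represses genes of other lineages. Its shares were 13.4% and 14.05% in the wild-type pair and 13.4% and 15.6% in the deficient pair, a mean of 14.1% ± 1.03 (SD, n = 4) and percentile 96.8 of 808 genes. *Bach2* (chr4:32238804-32586108, plus strand), a repressor that holds back plasma-cell and myeloid programs, had 15.2% and 15.4% in the wild-type pair and 13.6% and 15.6% in the deficient pair. None of the 403 genes of its length class had a higher mean than its 14.9% ± 0.916 (SD, n = 4), and in each library on its own the percentile of *Bach2* was between 99.3 and 100.

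*Ikzf1* (chr11:11685003-11772926, plus strand) and *Ikzf3* (chr11:98464902-98546031, minus strand) encode Ikaros and Aiolos, zinc-finger factors that act at successive stages. *Ikzf1* had 15.5%, 12.6%, 13.3% and 13.7% of its window under peaks, a mean of 13.8% ± 1.25 (SD, n = 4) and percentile 94.7 of 1645 genes. *Ikzf3* had 14.7% and 11.8% in the wild-type pair and 19.1% and 16.6% in the deficient pair, a mean of 15.5% ± 3.10 (SD, n = 4) and percentile 97.6 of 1708 genes. Both HDAC7-deficient values of *Ikzf3* were above both wild-type values, and those of *Ikzf1* lay between them.

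*Lef1* (chr3:131110471-131224356, plus strand), a Wnt-responsive factor of early B-cell growth, ranked lowest, with 10.5%, 11.6%, 9.92% and 12.2%, a mean of 11.1% ± 1.03 (SD, n = 4) and percentile 71.3 of 1382 genes. *Irf4* (chr13:30749226-30766976, plus strand) and *Irf8* (chr8:120736358-120756694, plus strand) encode interferon regulatory factors that act together at the pre-B stage, and IRF8 is also a factor of the myeloid lineage. *Irf4* had 15.1%, 11.9%, 11.7% and 10.4%, a mean of 12.3% ± 1.99 (SD, n = 4) and percentile 74.5 of 3004 genes. *Irf8* stood highest of the 10 and was the least even. Its shares were 36.5% and 13.7% in the wild-type pair and 23.9% and 19.7% in the deficient pair, a mean of 23.4% ± 9.65 (SD, n = 4) and percentile 99.9 of 3036 genes. In wild-type replicate 2 alone the *Irf8* percentile was 77.4, and in the other libraries it was between 98.2 and 100.

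The high coverage was not carried by the start sites. In the promoter, taken as the 1000 bp before the start of the principal transcript and the 100 bp after it, a median of 5.77% of the bases was under peaks, against 6.86% over all protein-coding genes. The promoters of *Foxo1* and *Bach2* held no peak in any library, which is 2 of 10 genes and also the case for 20.2% of all protein-coding genes. Those of *Pax5* and *Ebf1* held a peak in all 4 libraries, against 20.9% of all genes. *Pax5* stood out with 426 and 465 of 1100 promoter bases under peaks in the wild-type pair and 450 and 200 in the deficient pair, a mean of 35.0% ± 11.3 (SD, n = 4). The promoter of *Ikzf3* had 337, 231 and 390 bases under peaks in wild-type replicates 1 and 2 and HDAC7-deficient replicate 1, and 0 in HDAC7-deficient replicate 2. In the other 5 promoters at least 1 library had no peak and the means lay between 0.932% (*Irf8*) and 12.6% (*Lef1*). With a promoter of 2000 bp on each side of the start site, the median over the 10 genes rose to 14.6%.

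An unmarked start is shown by its sequence. The 250 bases just before the start site are printed for *Bach2*, where none of them was under a peak in any library, with CpGs in capitals, on the gene's strand of GRCm38.
*Bach2*, plus strand, chr4:32238554-32238803: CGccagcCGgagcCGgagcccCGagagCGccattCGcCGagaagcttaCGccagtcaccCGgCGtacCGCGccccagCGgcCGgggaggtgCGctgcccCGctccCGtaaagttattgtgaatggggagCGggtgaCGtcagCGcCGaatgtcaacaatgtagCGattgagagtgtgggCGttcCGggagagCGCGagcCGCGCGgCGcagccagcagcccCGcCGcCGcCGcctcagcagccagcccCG

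The stretch held 35 CpGs at 71.2% G and C. The promoters of the 10 genes were CpG-rich as a group, with a median of 6.32 CpGs per 100 bp against 2.55 over all protein-coding genes, and 7 of 10 had at least 4.45, the upper quartile. Those 7 were *Tcf3*, *Ikzf1*, *Ikzf3*, *Foxo1*, *Bach2*, *Lef1* and *Irf8*. Over all protein-coding genes the median share of the promoter under peaks was 4.30% in the group up to the lower quartile of CpG density and 7.20% in the group above the upper quartile, so CpG-rich promoters were not the ones with least coverage in these lists. In the last 250 bases before the start, *Foxo1*, *Bach2*, *Lef1*, *Irf4* and *Irf8* had no peak in any library, and *Tcf3* had 10 bases in a single library.

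**Figure D2:**
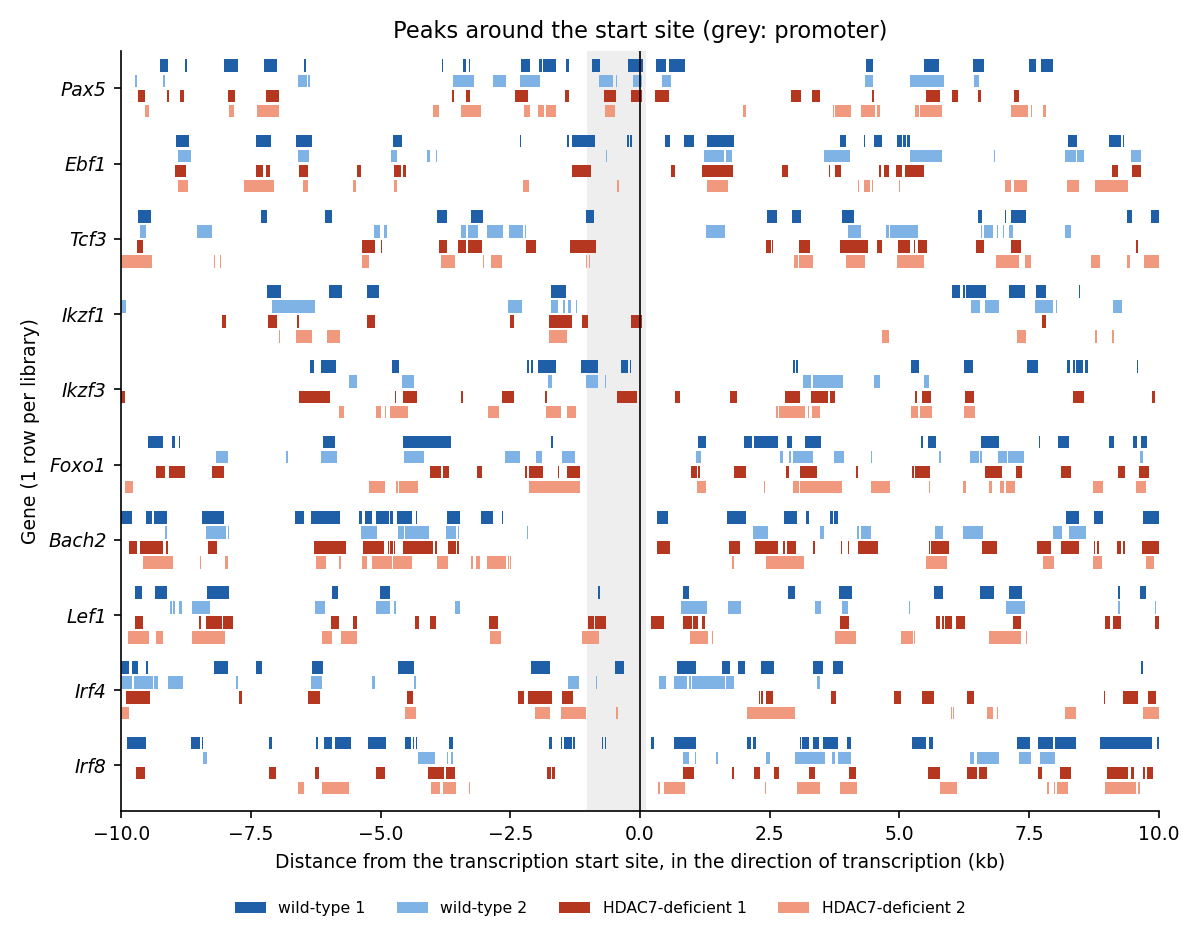
Peaks within 10 kb of the transcription start site of each gene, with 1 row per library and distance in kb along the direction of transcription. The grey band is the promoter; it is empty in *Foxo1* and *Bach2*, and in *Ikzf1* no library has a peak from 38 to 4658 bp after the start.

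Around the start sites, the mean share under peaks over the 10 genes fell to 8.27% in the 500 bp before the start and 7.55% in the 500 bp after it. Over all protein-coding genes the same bins gave 9.80% and 9.99%. Farther from the start the members were mostly higher, above all genes in 33 of 38 bins. In the remaining 5 they were below, and in 4 of these, for example 5.92% against 10.2% in the bin that begins 8000 bp upstream, they were also below their own value just before the start. Among the high bins, that from 3000 to 3500 bp downstream had 27.0% in the members against 10.2% in all genes, and the bin that begins 1500 bp upstream had 20.9% against 10.7%. These bins of 500 bp were picked for their values and are a description. *Bach2* was the gene with most peak sequence in its upstream 10 kb, at 24.4%, and *Irf4* and *Lef1* the ones with least in their downstream 10 kb, at 7.67% and 7.91%.

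Within the gene bodies, the first intron did not stand above the rest. It was under peaks for a median of 14.8% of its bases and the rest of the gene for 14.1%, against 9.94% and 9.26% over the 16867 protein-coding genes in which both measure at least 500 bp. The ratio of the shares had a median of 0.856 over the 10 genes and 1.07 over those genes, and was above 1 in 4 of 10, against 53.8% of them. Those 4 genes were *Ebf1* (2.16), *Irf4* (1.804), *Foxo1* (1.51) and *Bach2* (1.13). In *Ebf1* 25.8% ± 5.80 (SD, n = 4) of a short first intron of 2101 bp was under peaks, and the first intron was above the rest of the gene in all 4 libraries. *Foxo1* likewise had a higher first intron in all 4 libraries, but there it makes up 89.1% of the gene body, and 16.4% ± 0.749 (SD, n = 4) of it was under peaks. In *Ikzf1* and *Ikzf3* the first intron was below the rest in all 4 libraries.

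**Figure D3:**
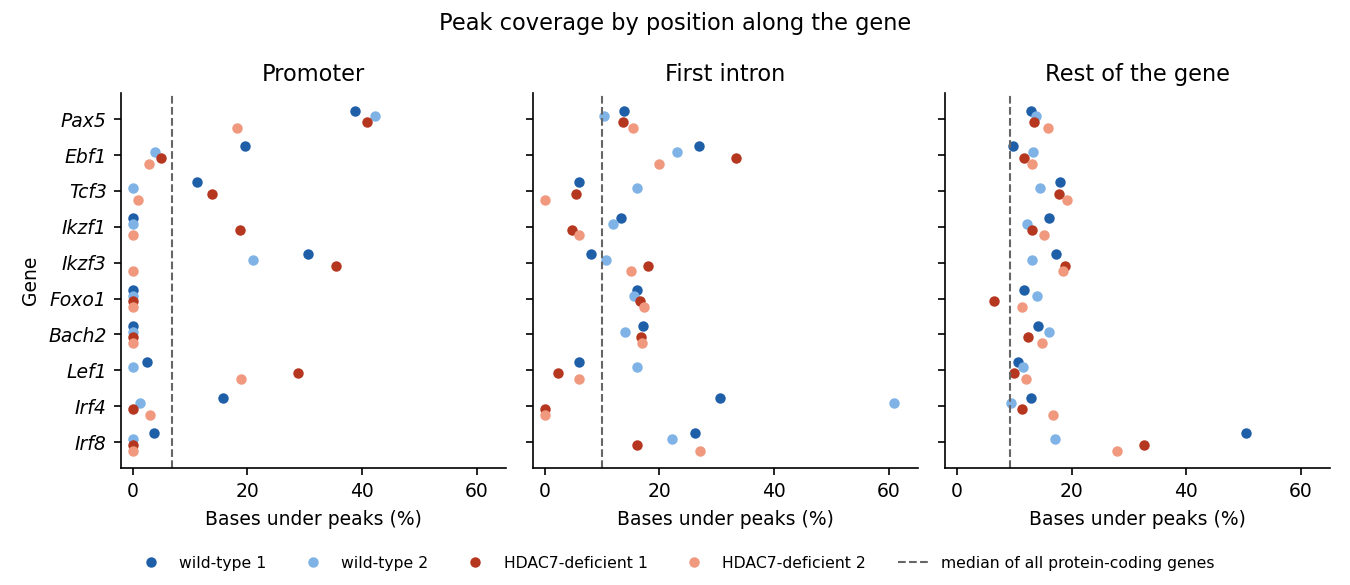
Percent of bases under peaks in the promoter, the first intron and the rest of the gene, with 1 point per library and the median of protein-coding genes as a dashed line. In the rest of the gene all points but 1 of *Foxo1* lie to the right of the dashed line at 9.26%, whereas the promoter points scatter from 0% to 42.3%. The first intron of *Irf4* is at 0% in both HDAC7-deficient libraries and at 30.5% and 60.8% in wild-type.

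Gaps between peaks were short in most of these genes. The genes compared were alike in length and not in the number of peaks, so this measure is not separate from the high peak number. The longest stretch with no peak in any of the 4 libraries was 2610 bp in *Pax5*, where genes of like length had a median of 5542.5 bp, 2145 bp in *Foxo1* against 4515 bp and 1474 bp in *Irf8* against 3389 bp. In *Bach2* it was 3303 bp against 7011 bp, and no gene of its length class had a shorter one. *Ikzf1* was the exception, with 4620 bp against 4552 bp. Its longest gap began 38 bp after the start site, at the beginning of the first intron. For the remaining 5 genes the gap was between 1969 bp (*Irf4*) and 5104 bp (*Ebf1*) long and at percentiles of 4.63 to 17.2.

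Individual peak positions varied far more between libraries than the share of each gene. Merging the 4 lists gave 2373 regions in the 10 windows, of which 261 (11.0%) had a peak in all 4 libraries, against 12.5% of regions over the genome, and 1339 were seen in 1 library alone. The share in all 4 ran from 5.26% (3 of 57 regions, *Irf4*) to 14.5% (11 of 76, *Irf8*). Of the 261 shared regions, 65.5% lay in later introns, which make up 69.5% of the windows, 13.4% in the first intron (14.1% of the windows), 6.13% in exons (3.50%) and 9.20% upstream (6.53%). A region that touched an exon was counted there, so its share is not the same measure as the share of exon bases. Of all 2373 regions, 66.6% lay in later introns, 15.5% in the first intron, 5.06% in exons and 6.83% upstream. Shared regions were within a few percentage points of these shares.

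In shared sequence, the bases under peaks of all 4 libraries, the CpG density relative to the gene window was uneven. The ratio was 1.804 in *Irf8*, 1.56 in *Foxo1*, 1.21 in *Ebf1* and 1.11 in *Pax5*, and between 0.622 and 0.970 in *Ikzf1*, *Bach2*, *Lef1*, *Tcf3* and *Ikzf3*. The 91 shared bases of *Irf4* held no CpG. The median of 0.866 was close to the 0.851 of 11206 protein-coding genes with at least 500 shared bases. Its side of 1 depended on the bases used: without soft-masked bases it was 1.04, with bases under peaks of at least 2 libraries 1.09, and without wild-type replicate 1 or HDAC7-deficient replicate 2 it was 1.22 and 1.07.

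Motifs known for these factors were searched on both strands in the 300 bases around the middle of each shared region. The E-box CAGCTG, bound by E2A, was present in 37 of the 261 regions (14.2%), with at least 1 in each of the 10 genes, against 9.97% of all 324088 shared regions of the genome. Of these 37 regions, 10 lay at *Pax5* and 9 at *Bach2*. The regions of the genome were not matched for base composition, and the difference was not tested. The remaining motifs were within 3 percentage points of the genome, a limit set after the values were seen. The EBF1 motif CCCNNGGGA was in 3.07% against 2.999%, the Ikaros motif TGGGAA in 28.0% against 27.5%, the IRF motif GAAANNGAA in 15.3% against 17.4% and the RUNX motif TGTGGT in 20.7% against 18.5%. For the FOXO motif TGTTTAC the shares were 3.07% and 3.65%, for the LEF1 motif CTTTGAA 5.75% and 6.50% and for the BACH2 core TGAGTCA 4.98% and 4.14%. A match is a stretch of letters and not a site shown to be bound. Of the cores printed above, those of *Ebf1* and *Irf8* each held 1 E-box. The *Ikzf3* core held 1 EBF1 and 1 IRF match, the *Tcf3* core 1 IRF match and the *Ikzf1* core none of these motifs.

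Between the genotypes, most of these genes overlapped in peak coverage. Over the 10 windows together, 13.8% and 13.7% of bases were under peaks in the wild-type pair and 13.5% and 14.7% in the deficient pair. With 2 libraries per genotype a two-sided exact permutation test cannot give a p below 0.333, so no difference could be called, and a gene was counted when its groups did not overlap, which gives that smallest p. By peak bases, 3 of 10 genes were higher in both HDAC7-deficient libraries, where 9.29% of protein-coding genes were, and 1 of 10 was lower in both, where 17.6% were. On chromosomes 1 to 13 alone these backgrounds were 8.77% and 20.1%. By the number of peaks, 0 of 10 genes were higher and 0 of 10 lower, against 12.8% and 10.8% of protein-coding genes. The median ratio of HDAC7-deficient to wild-type peak bases was 1.02 over the 10 genes. Over all protein-coding genes it was 0.969, and over those on chromosomes 1 to 13 it was 0.950.

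*Tcf3* had 5679 and 5809 peak bases in the wild-type pair and 6591 and 7143 in the deficient pair. The groups did not overlap and the ratio was 1.196 ± 0.0706 (SD propagated from the replicates), the difference best set off from the spread between replicates. With the gene body alone the *Tcf3* groups overlapped, at a ratio of 1.09. The peak numbers of *Tcf3* in the whole window overlapped too, at 38 and 33 against 40 and 37. *Ikzf3* had 14907 and 11891 bases in the wild-type pair and 19327 and 16759 in the deficient pair, the largest ratio at 1.35 ± 0.254. Its peak numbers overlapped, at 98 and 72 against 106 and 88. *Foxo1*, with 15659 and 15489 against 15685 and 17441 bases, was set apart by only 26 bases between wild-type replicate 1 and HDAC7-deficient replicate 1, and its ratio was 1.06 ± 0.0801. The *Foxo1* groups overlapped with the gene body alone, with 2 kb on each side, with peaks at least 200 bp wide and with peaks within 100 bp merged. In the other direction, *Irf4* had 5705 and 4496 bases in the wild-type pair and 4434 and 3941 in the deficient pair, a ratio of 0.821 ± 0.154, and here the nearest libraries were 62 bases apart. The ratio turned to 1.11 with 2 kb on each side, and the *Irf4* groups overlapped under all 5 alternatives of window, peak width, merging and scaling.

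In the remaining 6 genes the genotypes overlapped, with ratios of 1.06 ± 0.116 in *Pax5*, 1.05 ± 0.200 in *Ebf1*, 0.999 ± 0.162 in *Lef1*, 0.961 ± 0.143 in *Ikzf1*, 0.958 ± 0.0947 in *Bach2* and 0.867 ± 0.568 in *Irf8*. The *Irf8* ratio rests on wild-type replicates that differ more in proportion than any other replicate pair of these genes, 14726 against 5541 bases. It was 1.59 without wild-type replicate 1 and 0.597 without wild-type replicate 2.

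The counts depended on the settings. With values scaled to each library's total on chromosomes 1 to 13, *Pax5* and *Ebf1* joined *Tcf3*, *Ikzf3* and *Foxo1* as higher. That made 5 of 10 against 14.1% of protein-coding genes, and no gene was lower, against 15.1%. With the gene body alone only *Ikzf3* was higher and none was lower, against 10.4% and 16.1%, so the count of higher genes was at the background. Leaving out a library makes it easier for groups not to overlap: without wild-type replicate 1, wild-type replicate 2 or HDAC7-deficient replicate 1, 5, 5 and 6 genes were higher, against 18.5%, 33.4% and 34.6% of protein-coding genes, and *Tcf3*, *Ikzf3* and *Foxo1* were among them each time. The count of lower genes was 2 without wild-type replicate 1, and 3 without wild-type replicate 2 or without HDAC7-deficient replicate 2, each time with *Irf4*. The backgrounds were 47.3%, 27.0% and 43.6% in the same order, so these counts were near or below them.

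**Figure D4:**
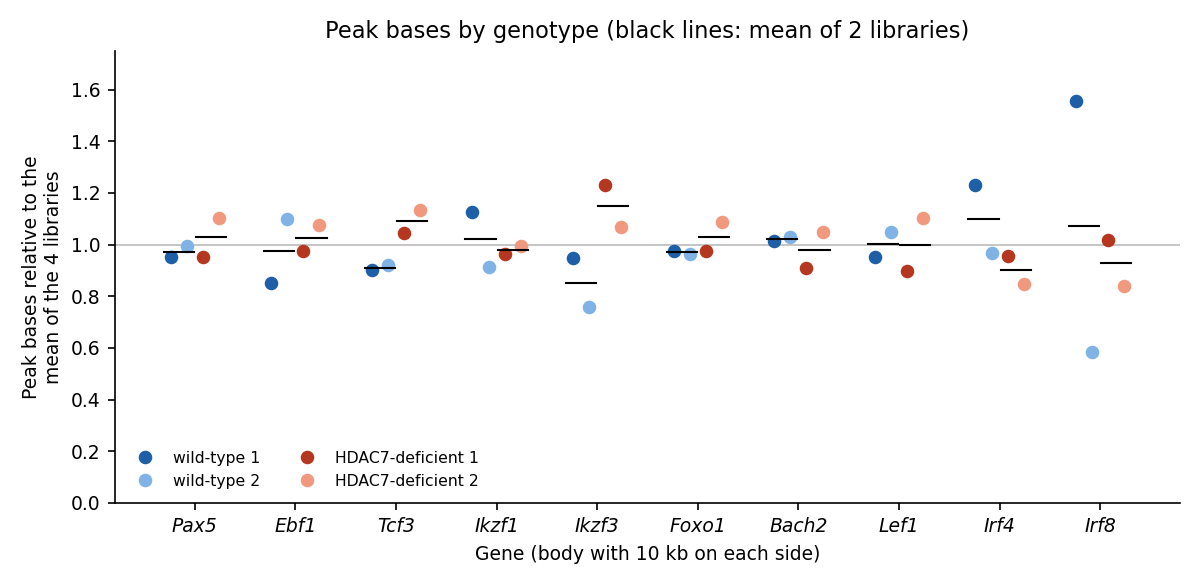
Peak bases of each gene window in each library, divided by the mean of the 4 libraries for that gene, with black lines at the mean of each genotype. *Tcf3* and *Ikzf3* show both HDAC7-deficient points above both wild-type points, while the wild-type points of *Irf8* lie on either side of the HDAC7-deficient ones.

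At the level of single regions, 70 of the 2373 (2.95%) had a peak in both HDAC7-deficient libraries and in neither wild-type library, where 2.92% of all regions did. The reverse held for 60 (2.53%), where 2.40% did. The share of such regions near these genes was thus close to that of the genome in both directions. *Foxo1* had 6 regions of the first kind and 1 of the second, *Irf4* had 1 and 4, *Ebf1* 20 and 15, *Bach2* 16 and 11 and *Pax5* 10 and 9. The remaining 5 genes had 17 and 20 between them.

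The 2 widest regions seen in a single genotype lay at *Irf4* and *Ikzf1*. For each, the longest stretch under peaks of both libraries is printed, with CpGs in capitals.
*Irf4*, wild-type alone, plus strand, chr13:30749944-30750127: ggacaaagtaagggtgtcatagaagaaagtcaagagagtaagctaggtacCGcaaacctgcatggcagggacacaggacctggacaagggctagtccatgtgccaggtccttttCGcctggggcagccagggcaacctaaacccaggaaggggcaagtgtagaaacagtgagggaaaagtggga
*Ikzf1*, HDAC7-deficient alone, plus strand, chr11:11781648-11781764: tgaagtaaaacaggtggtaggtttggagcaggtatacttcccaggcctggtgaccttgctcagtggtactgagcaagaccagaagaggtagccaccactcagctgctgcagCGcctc

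The *Irf4* region spanned 1148 bp (chr13:30749883-30751030) around 1.23 kb after the start site, from the first intron across exon 2. Its widest peaks were 360 bp in wild-type replicate 1 and 640 bp in wild-type replicate 2, and the HDAC7-deficient libraries had none. Accordingly 373 and 743 of the 1222 bases of the *Irf4* first intron outside the promoter were under peaks in the wild-type pair and 0 and 0 in the deficient pair. The *Ikzf1* region spanned 694 bp (chr11:11781552-11782245) and began 8.63 kb past the end of the gene, with peaks of 428 and 377 bp in HDAC7-deficient replicates 1 and 2. Both were chosen as the widest of 130 such regions, so their size is a description. The next, at *Bach2*, spanned 692 bp, and by the narrowest of their peaks they ranked 5 and 3.

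At *Ebf1* the region with the largest narrowest peak in HDAC7-deficient cells alone lay in intron 9 (chr11:44921648-44922110), with peaks of 398 and 463 bp. At *Bach2* the like region lay in intron 1 (chr4:32301096-32301612), with peaks of 383 and 417 bp. *Pax5* had such a region in intron 7 (chr4:44577941-44578361) and 1 of the reverse kind in intron 5 (chr4:44648197-44648671), where wild-type peaks were 334 and 330 bp wide. In *Ikzf3* the reverse kind lay 0.968 kb upstream of the start site (chr11:98546603-98546933), with wild-type peaks of 323 and 240 bp. *Tcf3* had no region of the reverse kind.

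The partners and stage factors with which these proteins work in early B cells, 21 genes, stood in between. Their median percentile among genes of like length was 84.3, with a range from 13.98 (*Tcf12*) to 99.96 (*Spib*), and 12 of 21 were above 75. By peak bases 0 of 21 were higher in both HDAC7-deficient libraries, where 9.29% of protein-coding genes were. Lower in both were 6 of 21, namely *Id2*, *Spi1*, *Cbfb*, *Bcl11a*, *Ets1* and *Erg*. Of all protein-coding genes 17.6% were lower, and of those on chromosomes 1 to 13 20.1%. By the number of peaks 1 of 21 was higher and 4 were lower, against 12.8% and 10.8% of protein-coding genes. *Spi1*, which encodes the myeloid and B-cell factor PU.1, had 12560 and 11702 bases in the wild-type pair and 7484 and 8589 in the deficient pair, a ratio of 0.662. *Id2*, an inhibitor of E2A, had 2315 and 3259 bases in the wild-type pair and 1785 and 1163 in the deficient pair, a ratio of 0.529. In both genes the groups were apart by peak bases and by the number of peaks. The median ratio of the 21 genes was 0.930, below the 1.02 of the 10 identity factors and the 0.969 of all protein-coding genes. On chromosomes 1 to 13, where all but 4 of the 21 lie, the median of protein-coding genes was 0.950.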

How the data were processed

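hMeDIP-seq was analysed in 2 wild-type and 2 HDAC7-deficient libraries; the input libraries were not analysed here. The authors trimmed reads (cutadapt 1.6, Trim Galore 0.4.2), mapped them (bwa in the methods, Bowtie2 in the submitters' processing notes, which name mm10) and removed duplicates with Picard. They scaled the signal to RPKM with deepTools and called peaks separately per library with bdgpeakcall of MACS2. Peaks that met input peaks were removed; whether before deposit is not stated. The deposited values are start and end positions, with no count, score or height, so the read-based test of the study was not repeated.

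Peaks were measured in Python 3.11.15 (pandas 2.3.3, NumPy 2.4.6; figures with matplotlib 3.10.9); 5059 peaks on unplaced or mitochondrial sequence were not used. Genes came from GENCODE M21, with APPRIS principal transcripts, and sequences from GRCm38 of RefSeq. The first intron and the rest exclude promoter bases. The genes and lists were chosen with earlier results of these data known. Every member was named, and of other lists the genes whose genotypes did not overlap in peak bases and the highest and lowest percentiles. The limit of 100 bp for printed cores was chosen after their lengths were seen, and 1 such core is not reported here. The scripts were tested on simulated data. Alternatives were other windows, peak widths, merging, scaling, length limits and promoters, each library left out, and a replicate block.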

Additional observations from a re-analysis of the deposited data

How the results depend on the processing

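The median percentile of the 10 genes stayed between 94.1 and 98.1 under all alternatives run, and between 94.8 and 97.3 with each library left out. The median ratio of first intron to rest stayed between 0.748 and 0.889. The count of genes higher in both HDAC7-deficient libraries by peak bases, 3, was 1 with the gene body alone, 2 with 2 kb on each side, peaks at least 200 bp wide or peaks within 100 bp merged, 5 with scaling to chromosomes 1 to 13 and 3 to 6 with a library left out. *Foxo1* was lost in the first 4 of these settings and *Tcf3* in the first. Of protein-coding genes 10.4%, 10.4%, 6.39%, 9.39% and 14.1% were higher in the same order, and 16.8% to 34.6% with a library left out. The count of lower genes, 1, was 0 with the gene body alone, 2 kb on each side, peaks at least 200 bp wide, peaks within 100 bp merged or scaling, and 1 to 3 with a library left out. In the same order 16.1%, 17.2%, 15.3%, 17.2% and 15.1% of protein-coding genes were lower, and 27.0% to 47.3% with a library left out. By the number of peaks the count of higher genes, 0, was 2 with peaks at least 200 bp wide, 1 with peaks merged, 2 with scaling and 0 to 8 with a library left out (against 6.09%, 10.6%, 13.5% and 24.4% to 35.2% of protein-coding genes), and that of lower genes, 0, was 1 with peaks at least 200 bp wide and 0 to 2 with a library left out (against 13.5% and 20.5% to 35.0%). For *Irf4* the ratio turned from 0.821 to 1.11 with 2 kb on each side. The median promoter share was 14.6% with 2000 bp on each side. The CpG ratio, 0.866, was 1.09 with bases of at least 2 libraries, 1.04 without soft-masked bases and 0.981 to 1.22 with a library left out. Leaving out a library leaves fewer values to overlap; the cause of the other changes was not tested. Replicate numbers do not show that samples are paired: deviations from the group means correlated at r = 0.088 over 21670 genes between equal numbers. With the replicate number as a block, 4 genes were higher and 1 lower by peak bases, against 18.7% and 30.0% of protein-coding genes, and 5 higher and 1 lower by the number of peaks, against 20.7% and 18.2%, and the median ratio was 1.03.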

Other observations

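The paralogues of the 10 genes, which are family members with main roles in other tissues or stages, were also measured. For the 28 genes the median percentile among genes of like length was 75.6, with a range from 2.27 (*Ebf3*) to 98.5 (*Pax2*), and 14 of 28 were above 75. Within a family the ranks differed. *Ebf1* stood at 94.9, whereas *Ebf2* stood at 37.4, *Ebf3* at 2.27 and *Ebf4* at 60.8. *Pax5* stood at 96.8, *Pax7* at 95.1 and *Pax2* at 98.5, whereas *Pax3* stood at 12.8 and *Pax9* at 5.29. *Ikzf1* and *Ikzf3* stood at 94.7 and 97.6, and *Ikzf2*, *Ikzf4* and *Ikzf5* at 33.8, 82.1 and 8.61. *Foxo1* (97.3) and *Bach2* (100) stood above *Foxo6* at 93.7, *Foxo3* at 69.1, *Foxo4* at 19.9 and *Bach1* at 88.9. In other families the order was the reverse. *Lef1* (71.3) stood below *Tcf7* at 97.6 and *Tcf7l2* at 87.7, and above *Tcf7l1* at 58.2. *Irf4* (74.5) stood below *Irf2* at 95.6, *Irf3* at 88.8, *Irf1* at 82.4, *Irf7* at 79.7 and *Irf5* at 76.8, all of which were below *Irf8* (99.9). No test of the difference between the lists was made.

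By peak bases 2 of the 28 paralogues were higher in both HDAC7-deficient libraries and 7 were lower, where 9.29% and 17.6% of protein-coding genes were. The higher genes were *Tcf7*, which encodes the T-cell factor TCF1, and *Ikzf5*. *Tcf7* had 8701 and 7201 peak bases in the wild-type pair and 9027 and 9327 in the deficient pair, a ratio of 1.15. The lower genes were *Pax1*, *Pax2*, *Foxo3*, *Foxo6*, *Bach1*, *Irf1* and *Irf7*, with ratios from 0.663 (*Pax1*) to 0.935 (*Irf1*). *Bach1*, the paralogue of *Bach2*, had 8421 and 8760 bases in the wild-type pair and 5451 and 6754 in the deficient pair, a ratio of 0.710. The *Bach1* groups were also apart by the number of peaks, in the same direction. *Foxo6*, lower by peak bases, was higher by the number of peaks, at 29 and 28 in the wild-type pair and 32 and 31 in the deficient pair. By the number of peaks 5 of the 28 paralogues were higher and 5 lower, against 12.8% and 10.8% of protein-coding genes. The paralogues named beside these for comparison within a family were chosen after their values were seen.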
